A study of Mus musculus with 6 samples.

Results

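The genes described here are the axon guidance ligands and receptors of the injured mouse sciatic nerve. A gene was a member if its symbol in the deposited files belonged to the semaphorins, plexins, neuropilins, ephrins, Eph receptors, Slits, Robos, netrins or netrin receptors and it had at least 1 protein-coding transcript. This gave 71 of the 54309 genes listed, with 432 transcripts between them. By family there were 20 semaphorins, 9 plexins, 2 neuropilins, 8 ephrins, 14 Eph receptors, 3 Slits, 4 Robos, 4 netrins and 5 netrin receptors. The other two, Unc50 and Unc5cl, share only the letters of their symbols with the netrin receptors of the Unc5 group and are kept apart from them.

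Female and male C57BL/6 mice aged 6 to 8 weeks had the left sciatic nerve cut at mid-thigh, and the stump proximal to the cut was taken 24 h later. Nerves of 2 mice were pooled for each library, and there were 3 libraries of each sex. All 6 libraries are from cut nerves, so that every comparison below is between injured females and injured males, and sham-operated nerves were not analysed here. Poly-A RNA was sequenced, and the libraries held 49158283 to 64802091 estimated counts in females and 51936195 to 69848769 in males.

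Growing axons read guidance cues that attract or repel the growth cone. Semaphorins act through plexins, and most of the secreted class 3 semaphorins also need a neuropilin, which binds the ligand. Ephrins sit on the membrane of 1 cell and bind Eph receptor tyrosine kinases on the next. Slits repel axons through Robo receptors, and netrins attract through Dcc or repel through Unc5 receptors. In peripheral nerve these cues are made by Schwann cells, fibroblasts and vessels as well as by neurons, and the nerve itself holds axons but no neuronal cell bodies.

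The windows before the start of the leading transcript are shown for the members that differed between the sexes, where the window held no annotated exon. Each is the 250 bases upstream of the transcript with the highest mean TPM (a level per transcript length, with equal totals across libraries) on GRCm39, read on the strand of the gene, with matches to CCAAT and GGGCGG in capitals. The windows lie at chr19:44977290-44977539 on the plus strand for Sema4g-201, at chr9:102231899-102232148 on the minus strand for Ephb1-201 and at chr9:107587675-107587924 on the minus strand for Sema3f-201.
Sema4g: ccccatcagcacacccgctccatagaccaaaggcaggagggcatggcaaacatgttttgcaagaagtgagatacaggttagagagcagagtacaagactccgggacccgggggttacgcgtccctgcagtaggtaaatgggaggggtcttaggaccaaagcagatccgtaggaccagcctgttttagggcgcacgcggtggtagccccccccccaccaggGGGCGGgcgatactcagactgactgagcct
Ephb1: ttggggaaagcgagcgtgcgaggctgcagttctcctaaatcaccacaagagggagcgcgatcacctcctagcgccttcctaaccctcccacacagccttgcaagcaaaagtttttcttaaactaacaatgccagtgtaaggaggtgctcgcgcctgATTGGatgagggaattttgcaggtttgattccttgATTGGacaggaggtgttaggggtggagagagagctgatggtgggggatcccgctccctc
Sema3f: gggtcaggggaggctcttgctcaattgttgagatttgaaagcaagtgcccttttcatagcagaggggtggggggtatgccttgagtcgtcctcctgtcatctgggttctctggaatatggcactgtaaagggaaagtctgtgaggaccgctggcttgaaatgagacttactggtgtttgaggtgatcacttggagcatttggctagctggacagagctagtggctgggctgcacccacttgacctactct
CCAAT (the CCAAT box), GGGCGG (the GC box) and TATAAA (the TATA box) were searched on both strands. Ephb1 held 2 CCAAT boxes, both on the opposite strand, 94 and 59 bases before the start. Sema4g held 1 GC box 30 bases before the start. Sema3f held none of these letters, and no match overlapped another. Of 21770 windows of the same length before protein-coding genes, 36.1% held a CCAAT box, 29.9% a GC box and 12.5% a TATA box. Ephb1 and Sema4g thus share no motif of those searched. A link between these motifs and the direction of a gene was not tested.

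The libraries differed in more than the guidance genes. Along the first principal component of all tested genes, which held 43.8% of the variance, females 1 and 2 were at -61.85 and -46.09, males 1 to 3 were at 36.07, 42.28 and 37.5, and female 3 stood between them at -7.902. The tissue label was borne out by the myelinating Schwann cell markers, whose summed level was 25650 to 34830 CPM (counts scaled to library size with TMM factors) in females and 58590 to 68910 in males, with 8 of 14 called higher in males. Central neuron markers summed to 6.639 to 11.85 CPM in females and 22.65 to 48.08 in males, with 9 of 11 tested called higher in males. Oligodendrocyte markers summed to 1101 to 1428 and 2314 to 2799 CPM with 6 of 9 tested called higher in males and Ermn and Olig2 at 0 in every female. Of the 10 listed genes, 2 (Mal and Olig1) also stand in the Schwann cell lists. Most of the sum was Mal, at 651.2, 892.2 and 942.0 CPM in females 1 to 3 and 1528, 1595 and 1895 in males 1 to 3. Olig1 was at 0.01772 to 0.03181 CPM in females and 0.7124 to 1.306 in males. Astrocyte markers summed to 174.4 to 196.4 and 194.5 to 207.5 CPM with 5 of 9 called higher in males, and sensory axon markers to 82.09 to 122.8 and 137.1 to 160.0 CPM with 3 of 9 tested. Skeletal muscle markers summed to 386.8, 533.9 and 38.4 CPM in females 1 to 3 and 10.45, 6.027 and 608.2 in males 1 to 3. They were thus high in females 1 and 2 and in male 3, with 3 of 9 tested called higher in females.

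On the TPM scale the guidance genes of this nerve were led by semaphorins. The 20 semaphorins summed to a mean of 1049 TPM over the 6 libraries, against 199.5 for the plexins, 112.3 for the Eph receptors, 98.04 for the Slits, 59.07 for the netrins, 49.97 for the neuropilins and 45.0 for the ephrins. The Robos summed to 5.576 TPM and the netrin receptors to 2.727, so that both receptor groups, as the rule defines them, lay far below their ligands. Guidance partners that the rule leaves out are not in these sums. Neo1 is among them, at 22.0 to 29.19 CPM in females and 23.97 to 28.25 in males, beside 3.607 to 4.396 over the libraries for Unc5a. A mean of 1 TPM or more was reached by 53 of the 71 members, 30 of the 35 ligands among them.

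Sema3b, a secreted class 3 semaphorin, was the highest member at 457.6 ± 109.7 TPM (SD, n = 6 libraries) and held 43.6% of the semaphorin total. Next came Sema3g, the class 3 semaphorin known from endothelium, at 112.0 ± 23.29 TPM, whose range of 87.82 to 148.5 lay wholly below that of Sema3b. Slit2, a secreted repellent, followed at 87.04 ± 18.6 TPM and held 88.8% of the Slit total. Sema4c stood at 82.69 TPM, its receptor Plxnb2 at 80.76, Sema6c at 77.94 and the membrane-anchored Sema7a at 75.6, and these neighbours in the order had overlapping ranges. Only 29.2% of the Plxnb2 TPM was in coding transcripts, at 28.66 ± 7.453 TPM in females and 18.54 ± 2.001 in males. The leaders of the other families were Ephb6, an Eph receptor without kinase activity, at 58.38 ± 14.0 TPM, Ntn1, the classic netrin, at 32.9 ± 8.373, Nrp1 at 26.34 ± 12.88, Efnb1 at 17.31 ± 2.123, the endothelial Robo4 at 4.867 ± 1.005 and Unc5a at 1.548 ± 0.1623. At the other end, Dcc, the attractive netrin receptor, was at a mean of 0.02183 TPM.

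**Figure D1:**
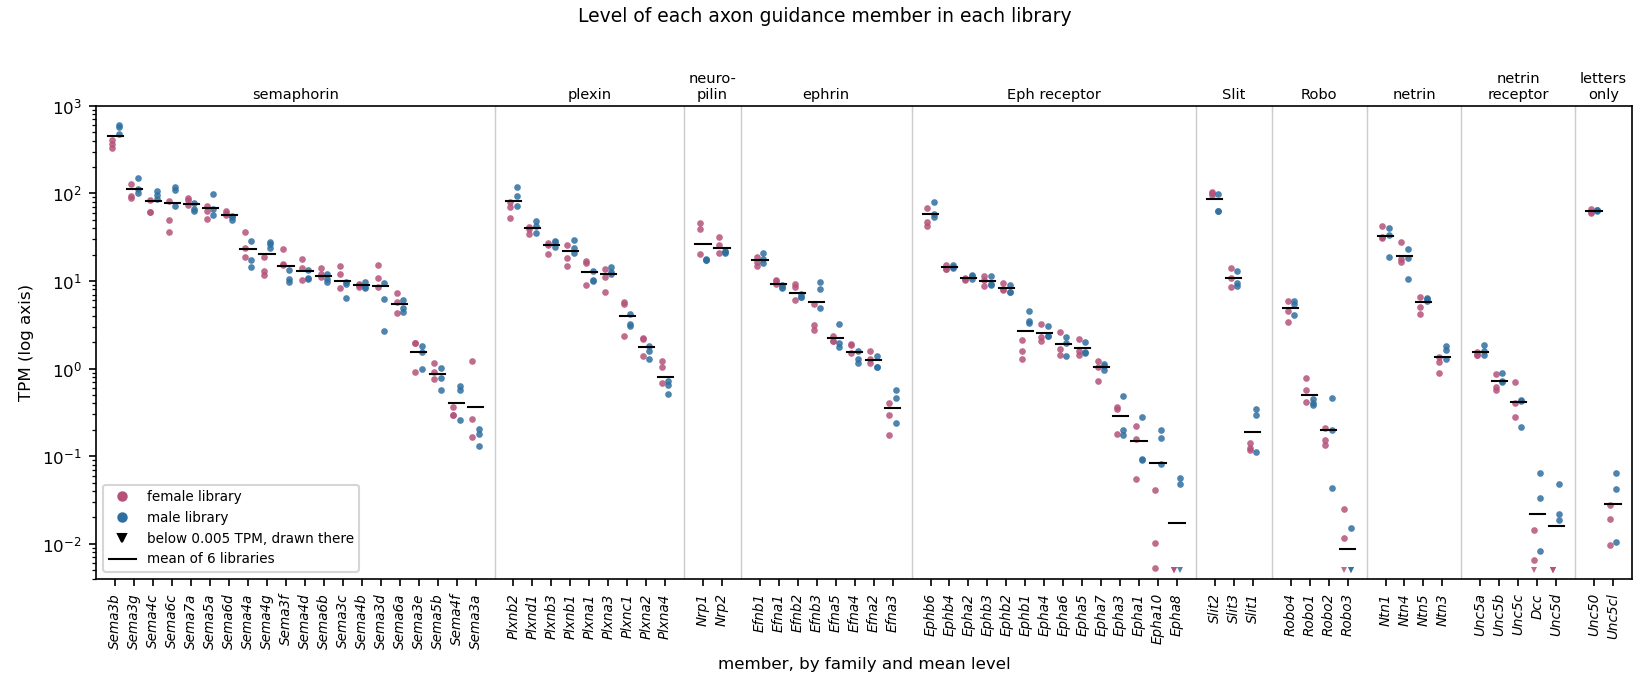
TPM of all 71 members in each library on a log axis, with females and males in separate colours, members ordered within families by their mean (black bar), and values below 0.005 TPM drawn as triangles at that level. Sema3b stands highest at a mean of 457.6 TPM, and the Robos and netrin receptors lie mostly below 5 TPM.

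To ask which guidance genes differed between injured females and males, all genes that passed a filter on low counts were fitted together with edgeR's quasi-likelihood test, and a gene was called at an adjusted p under 0.1. Of the members, 66 passed the filter and 5 were called (7.58%), beside 5.27% of the 18424 genes tested. Sema4g, Epha10 and Ephb1 were higher in males and Nrp1 and Sema3f higher in females, which makes 3 members in the direction that 3.81% of all genes took and 2 in the direction that 1.46% took. An unadjusted p under 0.05 was found for 18 members (27.3%), beside 20.7% of all genes, and the libraries of the sexes did not overlap for 17 (25.8%), beside 25.5%. The share of members without overlap was thus that of the whole table. Of the 66, 28 had a higher fitted level in males and 38 in females, and the median log2 fold change, male over female, was -0.03, against -0.026 over all genes. In bulk tissue, fewer cells of a type and less RNA per cell cannot be told apart.

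**Figure D2:**
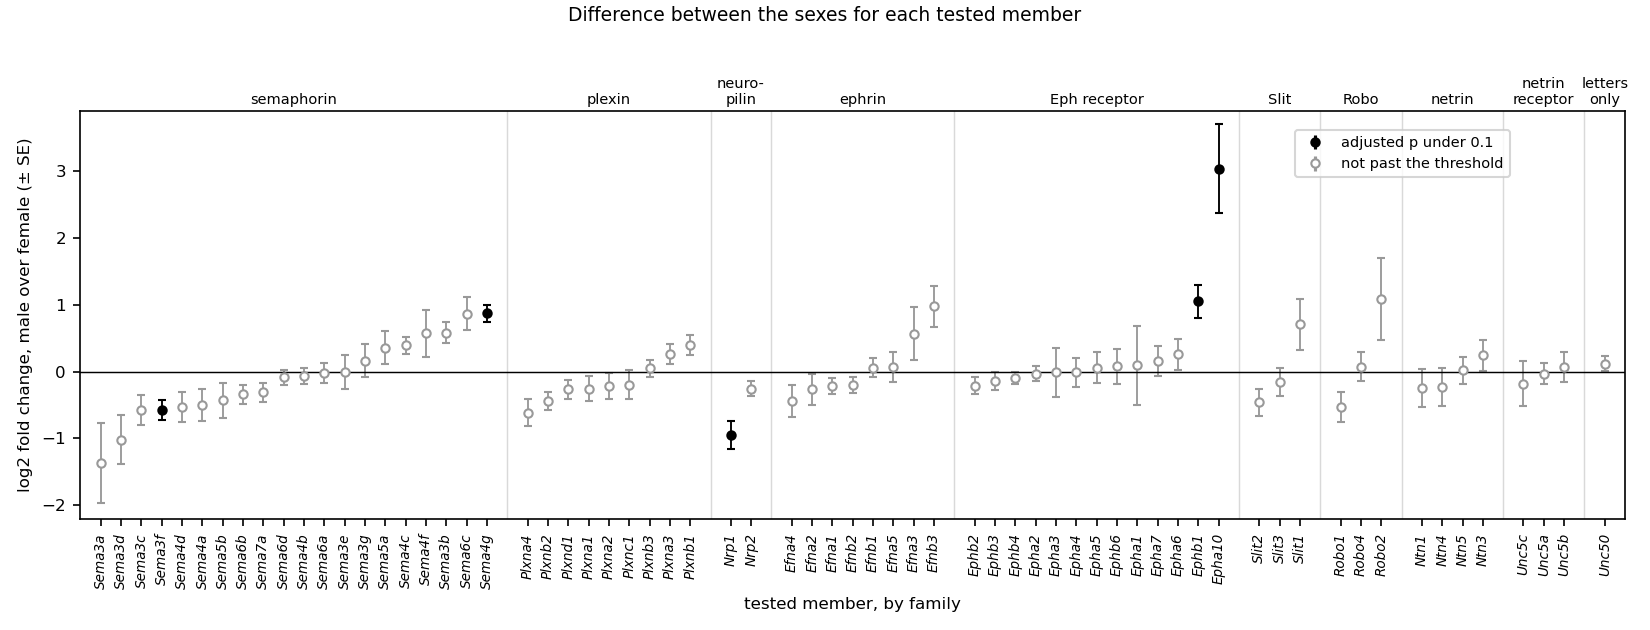
Log2 fold change, male over female, with its SE for the 66 tested members by family, where filled points passed the threshold. Epha10 stands highest at 3.03, the other called members lie between -0.95 and 1.05, and most members lie near 0.

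The 5 members that did not pass the filter had few counts. Epha8 had 0 counts in every female and 0, 9 and 10 in the males. Dcc had 9 counts in all females together and 41 in all males, with 4, 14 and 23 in males 1 to 3. Unc5d, a netrin receptor, had 1, 1 and 0 counts in females and 5, 18 and 6 in males. Robo3 had 5 and 3 counts and Unc5cl 4 and 8. Males 2 and 3 held most of the counts of Epha8 and Dcc, and they are also the males with the highest Epha10.

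Sema4g, a transmembrane class 4 semaphorin, gave the smallest p of the members. Its level was 38.55, 50.76 and 40.13 CPM in females 1 to 3 and 80.76, 72.73 and 82.81 CPM in males 1 to 3. Every male was above every female, by a wide gap. The mean was 43.15 ± 6.639 CPM (SD, n = 3) in females and 78.77 ± 5.328 (n = 3) in males, a log2 fold change of 0.87 ± 0.13 (SE) and an adjusted p of 0.0347. The full-length coding transcript Sema4g-201 carried 59.1% of its TPM, at 7.726, 11.85 and 8.071 TPM in females and 17.96, 11.12 and 15.55 in males, so that male 2 fell within the female range. In that male another coding transcript, Sema4g-203, was at 6.344 TPM, beside 0 to 1.074 in females. The call was lost without female 1 (adjusted p = 0.159) and without male 3 (0.148) and kept when any other library was left out. Over the 6 fits the log2 fold change was 0.791 to 0.999.

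Sema3b and Sema3f are neighbours on the minus strand of chromosome 9, at 107474872 to 107486456 and 107558698 to 107587674 on GRCm39 with 72.2 kb between them, and their differences pointed opposite ways. Sema3f, a secreted ligand that acts mainly through Nrp2, was at 38.37, 28.37 and 32.35 CPM in females and at 21.77, 25.05 and 19.81 in males, with every female above every male. The log2 fold change was -0.57 ± 0.15, with an adjusted p of 0.097, just under the threshold. Sema3b was at 637.8, 732.3 and 815.1 CPM in females and 1211, 943.6 and 1119 in males. Here every male was above every female, with a log2 fold change of 0.58 ± 0.16 and an adjusted p of 0.108, just over the threshold. Without female 3, the females' highest library, Sema3b passed (adjusted p = 0.0729, log2 fold change 0.67). Sema3f passed in 1 of 6 fits that left out a library, that without female 3 (0.0949), and was lost without female 1 (0.287), female 2 (0.119), male 1 (0.199), male 2 (0.109) and male 3 (0.305).

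The transcripts of Sema3f differed in how far they shared its difference. The main coding transcript, Sema3f-201, was at 7.573, 7.715 and 9.383 TPM in females and 6.943, 9.057 and 7.001 in males, which overlap. The shorter coding transcript Sema3f-204 was at 5.59, 2.921 and 1.999 TPM in females and 1.048, 0.9651 and 0.8553 in males. The retained-intron transcript Sema3f-203 was at 2.242, 2.064 and 1.775 TPM in females and 0.6974, 0.7956 and 0.401 in males. For both of these every female was above every male, with no test made at that level. With only protein-coding transcripts summed, the log2 fold change was -0.47 (adjusted p = 0.132), and the coding TPM was 13.18 ± 3.091 in females and 8.771 ± 1.345 in males.

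**Figure D3:**
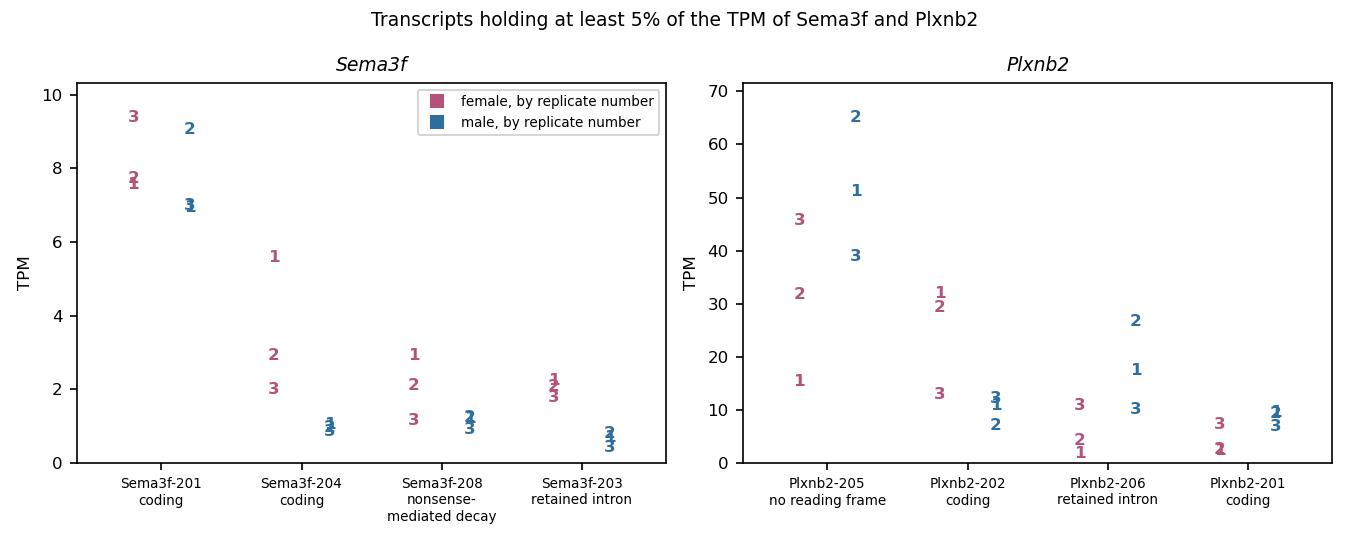
TPM in each library, shown by its replicate number and coloured by sex, of the transcripts that hold at least 5% of the TPM of Sema3f and of Plxnb2. Sema3f-201 overlaps between the sexes while Sema3f-204 does not. In Plxnb2 the noncoding transcript Plxnb2-205 is the most abundant, the coding Plxnb2-202 is higher in females, and the coding Plxnb2-201 leans toward males with overlap.

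The other semaphorins gave no call in the edgeR fit described above. DESeq2's Wald test, which called 13.2% of all genes, also called Sema3b, Sema3d, Sema4c and Sema6c. EdgeR without the filter on low counts also called Sema3d and Sema6c. At a mean CPM of 1 or more edgeR called Sema3b but lost Sema3f (adjusted p = 0.105). Among protein-coding genes edgeR also called Sema3b and Sema6c. With only protein-coding transcripts summed it called Sema3b, Sema3d, Sema4a and Sema6c but lost Sema3f. Across the 20, 9 had an unadjusted p under 0.05 (45.0%, beside 20.7% of all genes) and 8 did not overlap (40.0%, beside 25.5%), 4 with males above and 4 with females above. Sema6c, a transmembrane ligand of class A plexins, came closest after Sema3b at 69.65, 101.2 and 54.99 CPM in females and 160.2, 104.4 and 147.4 in males (log2 fold change 0.87 ± 0.24, adjusted p = 0.113). Sema4c, a ligand of Plxnb2, was at 147.2, 171.2 and 168.9 CPM in females and 243.3, 192.5 and 204.6 in males (0.39 ± 0.13, adjusted p = 0.148). Sema3d went the other way, at 29.45, 44.43 and 30.89 CPM in females and 17.57, 8.491 and 25.68 in males (-1.02 ± 0.37, adjusted p = 0.177). The largest difference in the family, -1.37 for Sema3a, the best known axon repellent of the class, rested on female 1 at 3.046 CPM, since the other females at 0.7443 and 0.684 lay close to the males at 0.4485 to 0.6679.

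Several of the abundant semaphorins overlapped between the sexes. Sema3g was at 322.8, 324.5 and 533.0 CPM in females and 555.0, 399.2 and 363.8 in males, so that 1 library of each sex was high (log2 fold change 0.16 ± 0.25, adjusted p = 0.748). Sema5a, a transmembrane semaphorin with thrombospondin repeats, was at 304.5, 449.8 and 505.5 CPM in females and 715.4, 429.4 and 468.6 in males (0.36 ± 0.25, adjusted p = 0.455). Male 1 was the highest library of both genes. Sema6d, a class 6 ligand of Plxna1, varied little, at 225.9 to 277.9 CPM over the 6 libraries (-0.09 ± 0.11, adjusted p = 0.702). Sema7a, which signals through Plxnc1 and integrins, was at 207.3, 175.4 and 242.5 CPM in females and 167.6, 184.9 and 151.7 in males (-0.31 ± 0.15, adjusted p = 0.275). Sema6b had every female above every male, at 25.45 to 35.01 against 21.55 to 24.96 CPM, with an adjusted p of 0.226. Sema4d, known as a ligand of Plxnb1, overlapped at 25.31 to 42.87 and 20.55 to 29.76 CPM (-0.54 ± 0.22, adjusted p = 0.229).

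Among the receptors of the semaphorins, Nrp1 differed most. Nrp1, the ligand-binding co-receptor for Sema3a and for VEGF, was at 127.2, 105.4 and 67.22 CPM in females and at 51.39, 51.85 and 51.91 in males. The males were almost equal, while female 3 lay nearer to them than to the other females. The mean was 99.95 ± 30.37 CPM in females and 51.71 ± 0.2854 in males, a log2 fold change of -0.95 ± 0.21 with an adjusted p of 0.0709. The coding transcript Nrp1-201 carried 95.4% of the TPM and showed the same order, at 43.31, 36.61 and 19.69 TPM in females and 16.8 to 17.29 in males. Nrp1 was called in 1 of 6 fits that left out a library, that without female 3 (log2 fold change -1.17, adjusted p = 0.0242), and was lost without female 1 (0.213), female 2 (0.158), male 1 (0.146), male 2 (0.118) and male 3 (0.234). Endothelial markers, the cells best known for Nrp1, were called in 0 of 11 and summed to 413.6 to 584.0 CPM in females and 457.8 to 494.3 in males, while macrophage markers were lower in the mean of the males in 10 of 10, at 2372 to 3675 and 1724 to 2774 CPM with 0 called. Pericyte and smooth muscle markers summed to 698.3 to 886.2 CPM in females and 584.4 to 658.7 in males, without overlap and with 1 of 8 called higher in females. Adipocyte markers had a negative log2 fold change in 7 of 7 tested with 0 called, and summed to 74.19 to 436.4 and 42.06 to 197.5 CPM. Their part in the difference was not tested. Nrp2, the co-receptor for Sema3f, also had every female above every male, at 123.2, 146.9 and 117.7 against 109.1, 106.1 and 108.8 CPM, without passing (-0.26 ± 0.11, adjusted p = 0.239).

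**Figure D4:**
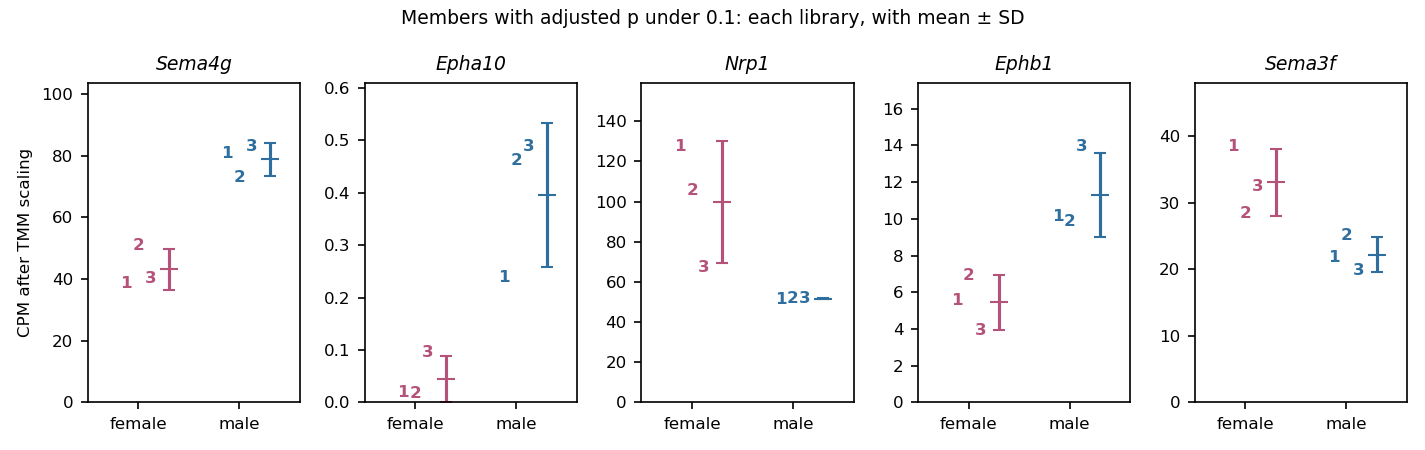
CPM of the 5 called members in each library, shown by its replicate number, with the mean and SD of the 3 libraries of each sex beside them; each panel has its own axis from 0. The sexes do not overlap in any panel, female 3 is the lowest female for Nrp1, and Epha10 lies below 0.5 CPM throughout.

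None of the 9 plexins was called by edgeR, with adjusted p-values of 0.133 to 0.852, while 3 had an unadjusted p under 0.05 and DESeq2's Wald test called Plxna4 and Plxnb2. Plxnb2, the highest plexin and a receptor for class 4 semaphorins, was at 200.0, 183.1 and 149.5 CPM in females and 143.3, 126.2 and 121.6 in males (log2 fold change -0.45 ± 0.14, adjusted p = 0.133). Every female was above every male in CPM, but on the TPM scale the order turned, at 52.77, 69.43 and 79.81 in females and 93.35, 117.4 and 71.82 in males. The transcripts show where the scales part. Plxnb2-205, a short transcript without a reading frame, was at 15.31, 31.71 and 45.68 TPM in females and 51.12, 65.08 and 38.79 in males, and the coding transcript Plxnb2-202 was at 31.88, 29.17 and 12.95 in females and 10.72, 6.988 and 12.09 in males. The coding transcript Plxnb2-201 leaned the other way with overlap, at 2.257, 2.5 and 7.231 in females and 9.557, 9.364 and 6.89 in males. Coding transcripts together held 42.6% of the gene's TPM in females and 19.7% in males, and female 3 lay nearer to the males than to the other females for Plxnb2-201, Plxnb2-202 and Plxnb2-205. Fitted with an offset for mean transcript length, the log2 fold change turned to 0.50 (adjusted p = 0.303), while with only protein-coding transcripts summed it was -0.69 (adjusted p = 0.104), with a coding TPM of 28.66 ± 7.453 in females and 18.54 ± 2.001 in males. The direction of Plxnb2 over all its transcripts thus depended on the scale. Without female 3 it passed on the counts (adjusted p = 0.0527). Such a turn between CPM and TPM occurred for 9 of the 66 tested members, none of them called.

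Plxna4, which pairs with Nrp1 in the Sema3a receptor, was at 11.33, 9.34 and 7.428 CPM in females and 5.061, 6.328 and 6.942 in males (log2 fold change -0.62 ± 0.20, adjusted p = 0.153). Plxnb1, the receptor of Sema4d, was higher in the mean of the males (0.40 ± 0.15, adjusted p = 0.204), and its libraries overlapped. Plxna3 and Plxnb3 are on the X chromosome, as is the ephrin Efnb1. None of these 3 was called, and their log2 fold changes were 0.26, 0.05 and 0.06.

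The Eph receptors held 2 of the calls, both higher in males. Ephb1, a receptor for B ephrins, was at 5.526, 6.929 and 3.913 CPM in females and 10.12, 9.838 and 13.92 in males. Each male exceeded each female, and the mean was 5.456 ± 1.509 CPM in females and 11.29 ± 2.28 in males (log2 fold change 1.05 ± 0.24, adjusted p = 0.0797). The coding transcript Ephb1-201, whose upstream window is printed above, held 79.5% of the TPM at 1.492, 1.94 and 0.8693 in females and 2.547, 2.485 and 3.631 in males. The noncoding Ephb1-204 was at 0 TPM in females 1 and 2, at 0.4015 in female 3 and at 0.5411 to 0.7852 in males. The call was lost without female 1 (adjusted p = 0.246), male 1 (0.12) or male 3 (0.261).

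Epha10, an Eph receptor without kinase activity, had the largest log2 fold change of the members, 3.03 ± 0.67 with an adjusted p of 0.0707, at a very low level. It had 1, 1 and 6 counts in females and 16, 26 and 25 in males, or 0.01953, 0.01772 and 0.09544 CPM against 0.2375, 0.4609 and 0.4875. The males lay above the females, but a mean of 0.08257 TPM puts the gene in place 66 of 71 by level. The study itself had named Epha10 as upregulated after axotomy in males, a contrast with sham nerves that also used these samples. The difference here is thus not independent of that choice. It was called without female 3 (adjusted p = 0.0443) and without male 1 (0.0827), and not without female 1 (0.252), female 2 (0.17), male 2 (0.123) or male 3 (0.245). Ephb6, the highest Eph receptor, was at 126.2, 128.3 and 212.8 CPM in females and 221.8, 136.0 and 135.2 in males. One library of each sex was high and the others were alike (log2 fold change 0.08 ± 0.27, adjusted p = 0.894). The other 10 tested receptors had adjusted p-values of 0.382 to 0.986. Ephb4, which marks venous endothelium, stayed within 42.26 to 48.85 CPM over all 6 libraries. Its females, at 47.1 to 48.85 CPM, lay narrowly above its males at 42.26 to 46.84 (adjusted p = 0.568).

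The sums of central neuron, sensory axon, oligodendrocyte and myelinating Schwann cell markers were higher in the same male libraries as Sema4g, Ephb1 and Epha10. In the sensory axon list the calls were Nefl, Nefm and Nefh. Of its 9 tested genes, 2 went the other way, Scn9a (log2 fold change -0.169) and Isl1 (-0.645). Astrocyte markers had 5 of 9 called higher in males, with sums that overlapped between the sexes. The part of all these markers in the differences was not tested.

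None of the 8 ephrins was called in the edgeR fit with the filter and all libraries, and 1 had an unadjusted p under 0.05. Efnb3, a transmembrane ligand of Eph receptors, had the smallest p, at 6.796, 11.04 and 6.363 CPM in females and 17.38, 9.944 and 20.18 in males (log2 fold change 0.97 ± 0.31, adjusted p = 0.142). Male 2 lay below female 2, so that the sexes overlapped, and without male 2 Efnb3 passed (adjusted p = 0.0758, log2 fold change 1.27). On all libraries it passed with DESeq2's Wald test and with edgeR without the filter on low counts (adjusted p = 0.0669). Efnb1, the highest ephrin, was at 34.41, 40.34 and 39.96 CPM in females and 47.35, 33.54 and 38.39 in males. Its difference of 0.06 ± 0.14 was smaller than its error and turned sign without female 1 or male 1. The A ephrins differed by log2 fold changes of -0.45 to 0.57, and only Efna1 had no overlap, at 10.28 to 10.62 CPM in females and 8.668 to 9.603 in males (adjusted p = 0.35).

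The Slits and Robos gave no call by edgeR or DESeq2, and of the 6 tested only Robo1 had an unadjusted p under 0.05. Slit2 was at 505.4, 478.3 and 618.0 CPM in females and 506.3, 334.3 and 322.4 in males (log2 fold change -0.46 ± 0.20, adjusted p = 0.251). Male 1 lay inside the female range, and males 2 and 3 lay well below it. The coding transcript Slit2-202 was at 36.29 to 39.28 TPM in females and at 34.47, 17.32 and 14.34 in males. Slit2-208, the coding transcript with the highest mean TPM of the gene, was at 31.78 to 37.99 TPM in females and at 29.99, 25.01 and 27.62 in males. In both transcripts every male was below every female. Among the receptors, Robo1, the main Slit receptor of neurons, was at 3.671, 3.03 and 2.402 CPM in females and 2.33, 1.95 and 2.008 in males, with no overlap (-0.53 ± 0.22, adjusted p = 0.232). Robo4 was at 13.81, 14.11 and 10.39 CPM in females and 15.5, 15.17 and 9.632 in males (0.07 ± 0.21, adjusted p = 0.872), and the sign turned without female 3 or male 1.

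Netrins and their receptors gave no call by edgeR or DESeq2 and 0 unadjusted p-values under 0.05, with adjusted p-values of 0.605 or more for the 4 netrins and of 0.79 or more for the 3 tested receptors. Ntn1 was at 125.8, 156.2 and 136.4 CPM in females and 157.4, 67.13 and 128.2 in males (log2 fold change -0.25 ± 0.28, adjusted p = 0.652). Male 2 alone was low, and without it the log2 fold change was 0.07. Ntn3 had the smallest p of the netrins, at 2.46, 3.367 and 2.656 CPM in females and 4.008, 2.517 and 3.49 in males (0.24 ± 0.24, adjusted p = 0.605). Unc5a, the highest netrin receptor among the members, was at 4.218, 4.129 and 4.12 CPM in females and 4.2, 4.396 and 3.607 in males (-0.03 ± 0.16, adjusted p = 0.936). Unc5c was at 2.011, 3.544 and 1.988 CPM in females and 2.597, 1.418 and 2.613 in males (-0.19 ± 0.34, adjusted p = 0.79). Ntn4, a laminin-like netrin of basement membranes, ranged from 37.4 to 62.24 CPM in females and from 25.83 to 55.28 in males (-0.23 ± 0.29, adjusted p = 0.678), with male 2 the lowest library here as for Ntn1. For these genes the errors were about as large as the differences or larger, so that no direction can be read. Unc50, which is no netrin receptor but was kept by the rule, was even across libraries at 32.36 to 39.88 CPM (0.12 ± 0.11, adjusted p = 0.574).

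Guidance partners outside these families were followed in a list of 29 genes, of which 28 were tested and 3 called (10.7%, beside 5.27% of all genes), with a median log2 fold change of -0.05. Cntn2, a contactin of axons and of the glia around the node, was at 0.1953, 0.2481 and 0.2704 CPM in females and 0.9945, 2.588 and 2.223 in males (3.00 ± 0.42, adjusted p = 0.0347). The study had also named Cntn2 as upregulated in males and low in females, so its call is not independent of that choice either. Cntn1, its axonal relative, was at 4.901, 6.522 and 4.756 CPM in females and 8.668, 7.853 and 11.48 in males (0.79 ± 0.21, adjusted p = 0.0995). Met, the receptor of hepatocyte growth factor, was higher in females at 69.32, 69.84 and 84.42 CPM against 52.84, 56.12 and 53.86 (-0.46 ± 0.11, adjusted p = 0.0793). These calls, like those of the members, went to 0 without female 1 and without male 3, and without female 2 there was 1.

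Of 60 intracellular effectors of guidance, all tested, 5 were called (8.33%, beside 5.27% of all genes), with a median log2 fold change of -0.07. Higher in males were Crmp1 (log2 fold change 1.55 ± 0.27, adjusted p = 0.0459) and Dpysl5 (1.196 ± 0.26, adjusted p = 0.0687), collapsin response mediators that carry semaphorin signals to the cytoskeleton. Crmp1 was at 0.6054, 0.638 and 0.7317 CPM in females and 1.425, 2.127 and 2.242 in males, and Dpysl5 at 3.593, 5.104 and 2.641 against 7.822, 7.853 and 10.3. Limk2, a kinase of cofilin, was also higher in males, at 77.31, 84.78 and 94.28 CPM against 124.4, 111.0 and 123.4 (0.48 ± 0.11, adjusted p = 0.075). In the other direction, Abl2, a tyrosine kinase that acts on the actin cytoskeleton, was at 69.24, 65.25 and 57.93 CPM in females and 46.31, 47.74 and 48.73 in males (-0.43 ± 0.10, adjusted p = 0.0734). Mical2, an actin-oxidising enzyme of a family that acts below plexins, was at 66.1, 63.07 and 47.48 against 42.55, 30.83 and 37.63 (-0.67 ± 0.16, adjusted p = 0.0877). Other collapsin response mediators of the list were not called. Dpysl2 was at 49.17 to 111.1 CPM in females and 146.7 to 160.9 in males (0.92 ± 0.26, adjusted p = 0.112). Dpysl4 also leaned to males (0.33, adjusted p = 0.223), and Dpysl3 to females (-0.20, adjusted p = 0.476). The 2 called collapsin response mediators and both contactins were low here, and they were higher in the sex in which central neuron and oligodendrocyte markers were higher. The part of those markers was not tested. The count fell to 0 without female 1 and without male 3, and to 1 without female 2 and without male 1. It was 15 without female 3, where 13.7% of all genes were called.

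The 5 calls among the members rested on few libraries in the same way. With female 1 left out or with male 3 left out no member was called, beside 10 and 12 members at an unadjusted p under 0.05, and the calls over all genes fell to 1 and 7. Without female 3, which lay between the sexes on the first component, 8 of 67 tested members were called, the 5 with Sema3b, Plxnb2 and Plxna4 added. The calls over all genes rose there to 2612 (13.7%). Without female 2 the calls were Sema4g, Ephb1 and Sema6c, without male 1 Sema4g and Epha10, and without male 2 Sema4g, Ephb1, Sema6c and Efnb3. Of all genes, 1.72% were called without female 2, 3.42% without male 1 and 4.03% without male 2. The log2 fold changes of the 5 kept their sign in every fit that left out a library.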

How the data were processed

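RNA of 6 pooled proximal sciatic stumps was read by paired-end sequencing of stranded TruSeq libraries. The submitters' processing notes name Trimmomatic 0.39, Salmon 1.5.2 and MultiQC 1.9, and the study names GENCODE M29 of the mouse. The authors deposited, for each of 140789 transcripts, the estimated count, which is not normalised, and the TPM, which is corrected for effective length. Reads that match several transcripts are split by Salmon's model, so transcripts of a gene and close paralogues can exchange estimates.

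Transcript counts were summed per gene, rounded and tested in R 4.3.3 with edgeR 4.0.16 (filterByExpr, TMM, quasi-likelihood F test with sex as the only term, Benjamini-Hochberg adjustment over 18424 genes), with a threshold of 0.1, as in the study. The SE was taken from F as the size of the log2 fold change over the root of F. The 6 libraries were grouped by the labelled sex. Per the labels each sex had 6 mice in pools of 2, and p-values measure the spread between pools. TPM was summed per gene for levels. Coordinates come from GENCODE M39 on GRCm39, in which all 71 members were found by identifier. No 2 libraries were copies of each other.

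The members and all gene lists were chosen with earlier results of these data known. Values per library are given for called members and, in each family, for the member with the highest mean TPM and that with the smallest p, and for up to 6 called genes per direction of each pathway list. Sema3a, Sema3d, Sema4c, Sema6c, Plxna4, Sema3g, Sema4d, Sema5a, Sema6b, Sema6d, Sema7a, Nrp2, Ntn4, the members too low to test and others named by ranges were chosen after their values were seen. The alternatives were DESeq2 1.42.0, limma 3.58.1 (voom), other scalings, filters, transcripts and thresholds, the replicate block and leaving out each library. The test was also run on simulated counts with known fold changes, whose means and dispersions were taken from the fit to these data.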

Additional observations from a re-analysis of the deposited data

How the results depend on the processing

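The replicate numbers did not pair the libraries. Over the 18424 genes tested, deviations from the group means correlated at -0.038, -0.30 and -0.29 for numbers 1 to 3. With the replicate block, 0 of 66 members were called (0 in each direction) and 56 genes in all, with 11 members at an unadjusted p under 0.05, with 1 of the guidance partners and 0 of the effectors. Members called, at 5 before (3 higher in males, 2 in females), came to 12 with DESeq2's Wald test (7 and 5; partners 6, effectors 13; 2436 genes), 8 without a filter on low counts (5 in males; partners 5, effectors 12), 3 with a length offset (1 in females) and 1 at an adjusted p under 0.05 (1 and 0; partners 1, effectors 1). They were 5 with DESeq2 size factors, 4 with library size alone, 4 with limma-voom (1 in females), 4 at a mean CPM of 1 or more (1 in females), 7 among protein-coding genes (5 in males) and 7 with protein-coding transcripts. Sema3f was lost with limma-voom, at a mean CPM of 1 or more, with a length offset and with protein-coding transcripts. Ephb1 was lost with library size alone and with protein-coding transcripts. Epha10 was lost with a length offset and fell under the filter at a mean CPM of 1 or more. Of all genes, 13.2% were called with DESeq2's Wald test, 5.22% without a filter, 5.3% with a length offset and 1.54% at an adjusted p under 0.05. The share was 5.4% with DESeq2 size factors, 4.48% with library size alone, 4.64% with limma-voom and 5.85% at a mean CPM of 1 or more. It was 6.95% among protein-coding genes and 6.53% with protein-coding transcripts. Leaving out each library gave 0 to 8 members (0 to 4 in males, 0 to 4 in females), 0 to 3 partners and 0 to 15 effectors. The 5 called members kept their sign throughout. Signs turned for Plxnb2 (0.499) and Unc5a (0.164) with a length offset, and for Unc5a with protein-coding genes (0.001) and with protein-coding transcripts (0.005). Leaving out each library gave -0.09 to 0.197 for Efnb1 (-0.016 without female 1), -0.202 to 0.371 for Ephb6 (-0.056 and -0.047 without females 1 and 2), -0.053 to 0.267 for Robo4 (-0.042 without male 1), -0.516 to 0.066 for Ntn1, -0.058 to 0.05 for Unc5a and -0.329 to 0.142 for Unc5c (0.087 without male 2). The cause was not tested. Genes under about 1 CPM, Epha10 among them, rest on few counts.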
